A study of Homo sapiens with 8 samples.

Results

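ATP-binding cassette (ABC) proteins of subfamilies A to G were followed in HepG2, an established human hepatoblastoma line used as a model of hepatocytes. Members were all genes on the array whose symbol was ABC, a letter from A to G and a number, a rule that took no measured value. It found 43 of 18821 genes, read by 62 probes, with 12 genes in subfamily A, 8 in B, 11 in C, 3 in D, 1 in E, 3 in F and 5 in G. ABCC13, a transcribed pseudogene in RefSeq, is among them. The study set 3 kinds of HepG2 culture against untreated cells: lipid-loaded cells, lipid-loaded cells given fenofibrate and lipid-loaded cells given linalool. Fenofibrate is a lipid-lowering drug whose acid activates the nuclear receptor PPARα, and linalool is a monoterpene alcohol of plant oils. By the protocol, all treated cells took up oleate (400 µM on albumin) for 24 h, while another label lists palmitate beside it. Serum-free medium followed for 24 h, alone or with 100 µM fenofibrate or 1 mM linalool. Whether the untreated cells spent that time without serum is not stated.

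ABC proteins bind and split ATP in paired nucleotide-binding domains, and most use that energy to move lipids, bile constituents, drugs or cofactors across a membrane. Some form a complete pump in a single chain, and others work only as dimers. In hepatocytes they load cholesterol onto lipoproteins, secrete bile salts, phospholipid and sterols into bile, expel conjugated drugs and bilirubin, and bring fatty acyl-CoA into peroxisomes. Members of subfamilies E and F have no membrane-spanning part, and the best studied of them act in translation.

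Every array carried 1 treated sample in Cy3 and untreated cells in Cy5, on 3 arrays for lipid loading, 3 for fenofibrate and 2 for linalool. All values are log2 ratios of the 2 channels with the sign the authors deposited. No source used here tells which channel was divided by which, so positive and negative name that sign and do not tell in which cells a transcript was more abundant. With no dye swap, a dye effect of a probe stays in its ratio, and a test against a ratio of 0 leaves out the control's own spread. A gene was called at a Benjamini-Hochberg adjusted p under 0.05 in limma, adjusted over 18819 genes. The labels speak of biological replicates without naming separate cultures, so p-values cover only how far these samples differ, possibly for technical reasons. Fenofibrate replicate 3 stood apart, with a correlation across genes of r = 0.127 to the average of the other 7 arrays, where the rest had 0.440 to 0.716.

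**Figure D1:**
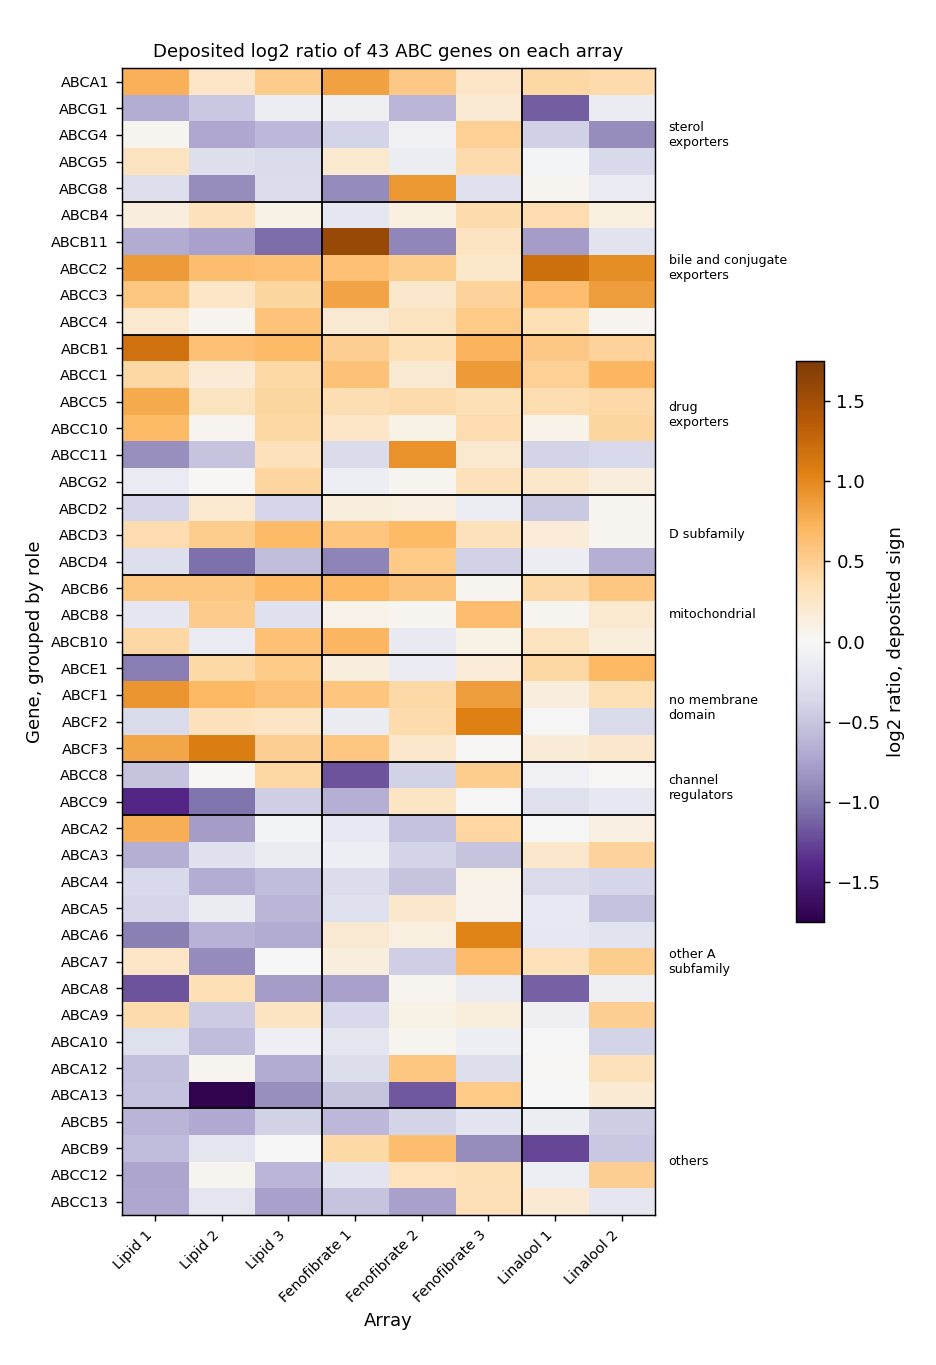
Log2 ratio with the deposited sign (colour) of the 43 ABC genes, in rows grouped by role, on each of the 8 arrays, in columns. ABCA1, ABCB1, ABCB6, ABCC1, ABCC2, ABCC3, ABCC4, ABCC5, ABCC10, ABCD3, ABCF1 and ABCF3 are positive in every column, and ABCB5 is negative in every column. Most genes of subfamily A other than ABCA1 are negative on the lipid-loaded arrays. Genes with several probes are shown as the average of their probes.

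In lipid-loaded against untreated cells, 8 ABC genes were called positive and 5 negative. The positive calls were the sterol exporter ABCA1, the conjugate exporter ABCC2, the drug exporters ABCB1 and ABCC5, the peroxisomal ABCD3, the porphyrin transporter ABCB6, and ABCF1 and ABCF3, which have no membrane domain. The negative calls were ABCA4, ABCA6 and ABCA13 of subfamily A, ABCB5, and the potassium channel subunit ABCC9. The 13 calls make 30.2% of the family, against 34.8% of all genes tested. Positive calls made 18.6%, against 24.1%, and negative calls 11.6%, against 10.7%, so the family was called about as often as genes in general. The median of its mean ratios was −0.11, beside −0.0031 over all genes. The count of calls was 0 without lipid-loaded replicate 1, 3 without replicate 2 and 5 without replicate 3, where 0%, 10.7% and 16.4% of all genes were called. It was 6 with quantile normalization (15.3% of all genes) and 0 when all arrays were given 1 spread (0% of all genes). Calls thus fell across the array and not only in this family. Over all probes, the SD of the ratios was 0.71, 0.59 and 0.55 on lipid-loaded replicates 1, 2 and 3, against 0.46 to 0.54 on the other arrays. The part of this wider spread in the calls was not tested.

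The sign was the same on all 3 lipid-loaded arrays for 13 members on the positive side (30.2%, against 38.3% of all genes). It was the same for 14 on the negative side (32.6%, against 27.9%).

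**Figure D2:**
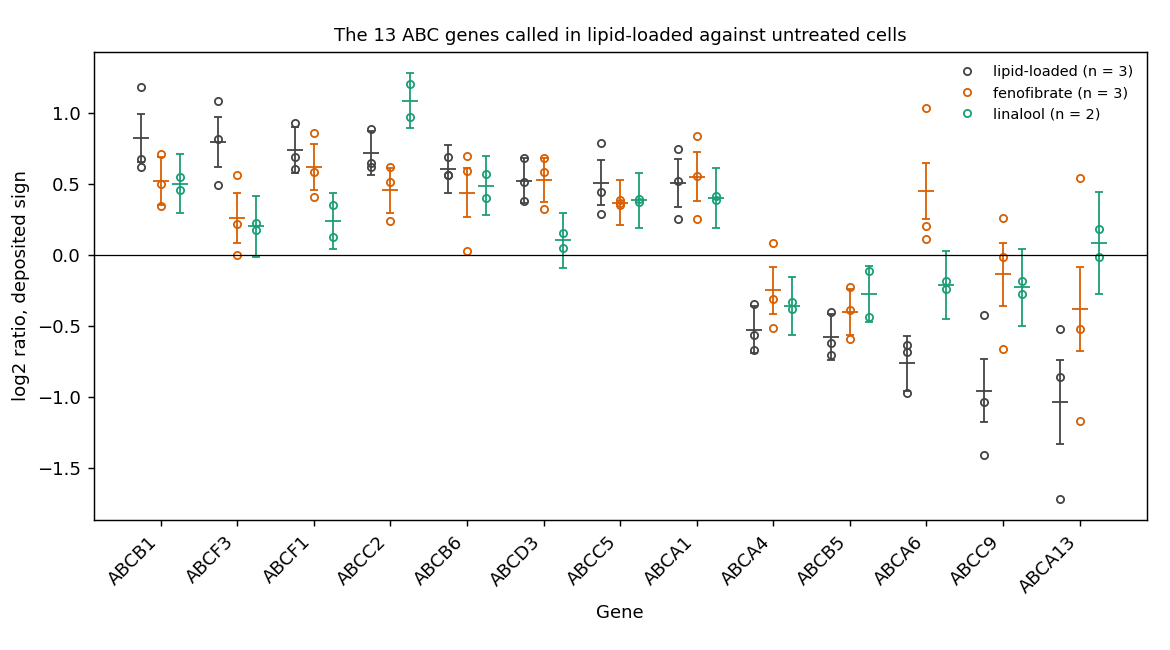
Log2 ratio with the deposited sign (vertical axis) of the 13 ABC genes called in lipid-loaded against untreated cells, for each array as a point, with group means and the SE of the limma fit. Both linalool arrays of ABCC2 lie above its other arrays, and the fenofibrate arrays of ABCA6 lie above 0 while its other arrays lie below.

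Sterol exporters did not share a sign. ABCA1 hands cholesterol and phospholipid to lipid-poor APOA1, which begins a high-density lipoprotein. Its log2 ratio was 0.74, 0.26 and 0.52 on the lipid-loaded arrays, 0.84, 0.56 and 0.26 with fenofibrate, and 0.41 and 0.39 with linalool. All 8 arrays were positive, and the groups overlapped. The mean was 0.51 in the lipid-loaded group (SE 0.17, n = 3, limma adjusted p = 0.0408), 0.55 (SE 0.17, adjusted p = 0.154) with fenofibrate and 0.40 (SE 0.21, adjusted p = 0.440) with linalool. The lipid-loaded call was made under 3 of 9 alternative settings.

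ABCG1, which passes cholesterol to mature high-density lipoprotein, had ratios of −0.68, −0.48 and −0.11 in lipid-loaded cells, −0.086, −0.61 and 0.20 with fenofibrate and −1.14 and −0.13 with linalool. Only fenofibrate replicate 3 was positive, and the linalool arrays lay far apart. The lipid-loaded mean was not called, at −0.42 (SE 0.22, adjusted p = 0.151). ABCG4, a close relative of ABCG1 known mostly from brain, stood at 0.030, −0.72 and −0.60, then at −0.40, −0.075 and 0.48 with fenofibrate and at −0.42 and −0.88 with linalool. Its linalool arrays lay below all fenofibrate arrays, and no mean was called.

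ABCG5 and ABCG8 form a single pump that sends cholesterol and plant sterols into bile, and their genes are neighbours on chromosome 2. ABCG5 read 0.29, −0.28 and −0.34 in lipid-loaded cells, 0.21, −0.12 and 0.40 with fenofibrate and −0.029 and −0.35 with linalool. ABCG8 read −0.29, −0.89 and −0.31, then −0.89, 0.91 and −0.25, then 0.040 and −0.14. The partners differed in sign on lipid-loaded replicate 1, on all 3 fenofibrate arrays and on linalool replicate 1. Neither was called, with lipid-loaded means of −0.11 (SE 0.18, adjusted p = 0.646) and −0.50 (SE 0.28, adjusted p = 0.171).

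Of the 5 sterol exporters, 1 was called positive and 0 negative, against 24.1% and 10.7% of all genes, with a median of −0.42. Genes of sterol efflux and lipoproteins outside the family had 13 positive calls and 1 negative among 21, against 24.1% and 10.7% of all genes, with a median of 0.52. As for the whole array, 0 of these calls were left without lipid-loaded replicate 1 or when all arrays were given 1 spread, which holds for each gene list below. APOA1, the acceptor of ABCA1's lipid, stood at 0.99 (SE 0.15), APOE, another acceptor, at 0.70 (SE 0.16), and NPC1 and NPC2, which release cholesterol from lysosomes, at 0.52 (SE 0.18) and 0.76 (SE 0.16). CYP27A1, a sterol hydroxylase, was at 0.83 (SE 0.15). GRAMD1B, which carries sterol inward from the plasma membrane, was the negative call, at −0.84 (SE 0.25). NR1H3 codes for LXRα, the oxysterol receptor that drives ABCA1 and ABCG1, and was not called at 0.33 (SE 0.18, adjusted p = 0.156). Its partner receptor RXRA was called at 0.50 (SE 0.17, adjusted p = 0.0444).

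Among the bile and conjugate exporters, ABCC2 was the one called in lipid-loaded cells. It pumps bilirubin glucuronide and other conjugates into the canaliculus. Its log2 ratio was 0.88, 0.65 and 0.62 in lipid-loaded cells, 0.62, 0.51 and 0.24 with fenofibrate and 1.20 and 0.97 with linalool. The linalool arrays lay above all others. The fenofibrate arrays lay below all lipid-loaded ones by a narrow margin, the nearest arrays being at 0.620 and 0.623. Means were 0.72 (SE 0.16, adjusted p = 0.0138), 0.46 (SE 0.16, adjusted p = 0.179) and, over 2 arrays, 1.09 (SE 0.19, adjusted p = 0.128). The linalool mean was the highest of the family in that group with the deposited sign and is a 2.12-fold ratio. It was called when all arrays were given 1 spread (adjusted p = 0.0258) or weighted (adjusted p = 0.0257). It was not called with quantile normalization, median centring, 1 probe per gene or a fit to the compared groups only. The lipid-loaded mean was called under 7 of 9 settings.

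ABCC3, which exports conjugates to the blood, read 0.57, 0.26 and 0.45 in lipid-loaded cells, 0.82, 0.23 and 0.46 with fenofibrate and 0.66 and 0.87 with linalool. Here too the linalool arrays lay above the lipid-loaded ones, but they overlapped those with fenofibrate. These values average 2 probes, and in each probe taken singly the linalool and lipid-loaded arrays overlapped. No mean was called, at 0.43 (SE 0.17, adjusted p = 0.0665), 0.50 (SE 0.17, adjusted p = 0.171) and 0.76 (SE 0.21, adjusted p = 0.265). ABCC4, an exporter of cyclic nucleotides and bile acids on the blood side, read 0.21, 0.043 and 0.60, then 0.20, 0.30 and 0.54, then 0.35 and 0.051. In this average of 2 probes all arrays were positive and the groups overlapped. A probe taken singly was negative on lipid-loaded replicates 1 and 2 (−0.41 and −0.13) and on fenofibrate replicate 1 (−0.12).

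ABCB11, the bile salt export pump, and ABCB4, which puts phosphatidylcholine into bile, supply main constituents of bile. ABCB11 was at −0.69, −0.75 and −1.08 in lipid-loaded cells and at −0.79 and −0.23 with linalool. With fenofibrate it was at 1.57, −0.93 and 0.29, so that arrays of this group fell on both sides of 0. Its lipid-loaded mean was not called, at −0.84 (SE 0.35, adjusted p = 0.0758). ABCB4 was nearer 0, at 0.13, 0.32 and 0.093, then −0.20, 0.12 and 0.38, then 0.38 and 0.11. The 5 exporters of this role had 1 positive and 0 negative calls, against 24.1% and 10.7% of all genes, and a median of 0.28.

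Bile acid genes outside the family were mixed, with 3 positive and 4 negative calls among 16, against 24.1% and 10.7% of all genes, and a median of −0.30. SLC10A1, the sodium-coupled importer of bile acids, stood at −1.18 (SE 0.23, adjusted p = 0.0135), and FGF19, a hormone that restrains bile acid synthesis, at −1.07 (SE 0.18, adjusted p = 0.0135). BAAT, which conjugates bile acids, was called at 0.54 (SE 0.17, adjusted p = 0.0319). NR0B2, a repressor that bile acids induce, was called at 0.64 (SE 0.15, adjusted p = 0.0156). Of 12 genes of glutathione and conjugation, whose products are cargo of ABCC pumps, 8 were called positive and 1 negative, against 24.1% and 10.7% of all genes, with a median of 0.62. NFE2L2 codes for NRF2, an activator of ABCC2 and ABCC3, and was called at 0.67 (SE 0.16, adjusted p = 0.0151).

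Of the drug exporters, ABCB1, or P-glycoprotein, had the highest mean in lipid-loaded cells, while ABCC1 was above it with fenofibrate and with linalool. ABCB1 expels many lipophilic drugs and lies next to ABCB4 on chromosome 7. Its log2 ratio was 1.18, 0.62 and 0.67 in lipid-loaded cells, 0.50, 0.34 and 0.71 with fenofibrate and 0.55 and 0.46 with linalool. Every array was positive, and the linalool arrays lay below the lipid-loaded ones. The lipid-loaded mean, 0.83 (SE 0.17, adjusted p = 0.0135), was the highest of the family with the deposited sign and was called under 7 of 9 settings. It was 0.52 (SE 0.17, adjusted p = 0.164) with fenofibrate and 0.50 (SE 0.21, adjusted p = 0.381) with linalool.

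ABCC5 exports cyclic nucleotides and nucleotide analogues. Its arrays read 0.79, 0.29 and 0.45, then 0.37, 0.39 and 0.35 with fenofibrate and 0.37 and 0.40 with linalool, and the lipid-loaded mean was called at 0.51 (SE 0.16, adjusted p = 0.0304), under 4 of 9 settings. ABCC1, which expels glutathione conjugates, read 0.42, 0.17 and 0.40 in lipid-loaded cells, 0.61, 0.20 and 0.89 with fenofibrate and 0.49 and 0.70 with linalool. It was positive on every array without being called, and its linalool arrays lay above the lipid-loaded ones.

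ABCC11, known for its part in earwax type, read −0.87, −0.51 and 0.32 in lipid-loaded cells, −0.33, 0.94 and 0.21 with fenofibrate and −0.40 and −0.35 with linalool. It had the lowest lipid-loaded mean of this role, −0.36 (SE 0.26, adjusted p = 0.281). ABCC10, a pump of taxanes, read 0.68, 0.047 and 0.42, then 0.25, 0.086 and 0.38, then 0.071 and 0.44, all positive, and was not called at 0.38 (SE 0.17, adjusted p = 0.102).

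ABCG2 pumps urate and many drugs. It read −0.15, 0.0040 and 0.44 in lipid-loaded cells, −0.097, 0.030 and 0.32 with fenofibrate and 0.24 and 0.13 with linalool. The lipid-loaded mean, 0.099 (SE 0.17, adjusted p = 0.652), averages probes at 0.55 and −0.35. Of 6 drug exporters, 2 were called positive and 0 negative, against 24.1% and 10.7% of all genes, with a median of 0.35.

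Promoter letters are shown for ABCC2, ABCB1 and ABCA1, the called exporters of conjugates, drugs and sterols with values given above, and for ABCA6, a negative call whose fenofibrate arrays have the other sign. The sequences are RefSeq's on GRCh38.p14, 5′ to 3′ on the gene's strand, from 250 bases before to 50 bases after the annotated start. They lie at chr10:99782390-99782689 on the plus strand, and at chr7:87600835-87601134, chr9:104928106-104928405 and chr17:69141846-69142145 on the minus strand. Capitals mark matches on either strand to 4 motifs: the nuclear receptor site AGGTCA, the antioxidant response core TGACNNNGC, the CCAAT box CCAAT and the GC box GGGCGG.
ABCC2: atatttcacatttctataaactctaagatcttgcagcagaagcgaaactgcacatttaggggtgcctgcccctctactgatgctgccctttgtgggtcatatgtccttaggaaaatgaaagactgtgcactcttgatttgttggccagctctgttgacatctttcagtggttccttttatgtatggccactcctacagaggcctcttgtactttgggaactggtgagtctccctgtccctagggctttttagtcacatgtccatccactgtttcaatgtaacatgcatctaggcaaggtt
ABCB1: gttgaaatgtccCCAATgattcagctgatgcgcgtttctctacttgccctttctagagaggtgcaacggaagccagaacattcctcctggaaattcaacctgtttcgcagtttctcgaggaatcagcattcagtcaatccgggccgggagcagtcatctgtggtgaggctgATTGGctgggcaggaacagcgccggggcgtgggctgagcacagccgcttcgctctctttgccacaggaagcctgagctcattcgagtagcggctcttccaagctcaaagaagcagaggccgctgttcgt
ABCA1: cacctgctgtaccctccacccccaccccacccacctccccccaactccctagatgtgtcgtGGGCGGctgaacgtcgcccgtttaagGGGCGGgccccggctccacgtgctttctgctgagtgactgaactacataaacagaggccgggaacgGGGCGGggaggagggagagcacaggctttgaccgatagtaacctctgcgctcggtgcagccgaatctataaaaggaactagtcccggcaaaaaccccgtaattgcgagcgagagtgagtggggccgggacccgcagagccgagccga
ABCA6: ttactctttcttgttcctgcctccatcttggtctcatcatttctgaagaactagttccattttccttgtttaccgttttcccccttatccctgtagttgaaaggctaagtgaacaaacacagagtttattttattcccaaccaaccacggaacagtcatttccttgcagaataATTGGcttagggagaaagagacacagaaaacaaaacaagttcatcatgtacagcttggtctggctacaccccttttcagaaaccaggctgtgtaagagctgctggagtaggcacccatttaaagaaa

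ABCA1 has 3 GC boxes, ABCB1 has 2 CCAAT boxes, ABCA6 has 1 CCAAT box, and ABCC2 has no match to these motifs in this window. Promoters were matched for 34 of the 43 members. AGGTCA occurred in 3 of them (8.82%), against 13.8% of all 35116 promoters of this length, and TGACNNNGC in 9 (26.5%), against 13.3%. CCAAT occurred in 10 (29.4%), against 34.6%, and GGGCGG in 17 (50%), against 45%. The 35116 promoters were not limited to genes on the array. Of the 8 members called positive in lipid-loaded cells, 6 had a GC box, 2 a CCAAT box, 2 the antioxidant core and 1 the receptor site. Of the 3 members called negative that had a matched promoter, 1 had a GC box and 1 a CCAAT box. A match is a run of letters, and binding was not measured.

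Subfamily D had 3 genes. ABCD3 imports branched-chain acyl-CoA and bile acid intermediates into peroxisomes. It read 0.38, 0.51 and 0.68 in lipid-loaded cells, 0.59, 0.68 and 0.32 with fenofibrate and 0.15 and 0.051 with linalool. In this average of 2 probes all arrays were positive, and both linalool arrays lay below every other array. Means were 0.52 (SE 0.16, adjusted p = 0.0272), 0.53 (SE 0.16, adjusted p = 0.148) and 0.10 (SE 0.19, adjusted p = 0.830), and the lipid-loaded mean was called under 4 of 9 settings. A probe taken singly was negative on lipid-loaded replicate 1 (−0.072) and linalool replicate 2 (−0.20), and its linalool and lipid-loaded arrays overlapped.

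ABCD2, which carries very long-chain acyl-CoA into peroxisomes, read −0.38, 0.21 and −0.38 in lipid-loaded cells, 0.13, 0.11 and −0.12 with fenofibrate and −0.47 and 0.042 with linalool. ABCD4, which serves vitamin B12 release from lysosomes, read −0.29, −1.06 and −0.56, then −0.94, 0.54 and −0.40, then −0.12 and −0.66. Neither was called, with lipid-loaded means of −0.18 (SE 0.18, adjusted p = 0.422) and −0.63 (SE 0.26, adjusted p = 0.0740). Of 22 genes of peroxisomal oxidation and assembly, 9 were called positive and 0 negative, against 24.1% and 10.7% of all genes, with a median of 0.39. Among them, DECR2 was at 0.85 (SE 0.17) and HSD17B4 at 0.81 (SE 0.16), both enzymes of peroxisomal fatty acid oxidation. PPARA, the receptor fenofibrate acts on, was not called at 0.33 (SE 0.16, adjusted p = 0.129).

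Of 3 mitochondrial members, which work as dimers, ABCB6 was called. It transports porphyrins and read 0.56, 0.56 and 0.69 in lipid-loaded cells, 0.70, 0.59 and 0.032 with fenofibrate and 0.40 and 0.57 with linalool. Only fenofibrate replicate 3 was near 0, and the lipid-loaded mean, 0.60 (SE 0.17, adjusted p = 0.0229), was called under 4 of 9 settings. ABCB8, linked to mitochondrial iron export in mouse, read −0.20, 0.52 and −0.26, then 0.072, 0.051 and 0.65, then 0.050 and 0.22. ABCB10, which takes part in haem synthesis, was not called at 0.30 (SE 0.20, adjusted p = 0.252). Of 20 genes of haem and iron-sulfur cluster synthesis, 14 were called positive and 0 negative, against 24.1% and 10.7% of all genes, with a median of 0.61. ALAS1, the first enzyme of haem synthesis, was at 0.54 (SE 0.15, adjusted p = 0.0203), while FECH, the last, was not called at 0.11 (SE 0.18, adjusted p = 0.635).

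ABCF1, which binds the initiation factor eIF2, read 0.93, 0.69 and 0.60 in lipid-loaded cells, 0.58, 0.41 and 0.86 with fenofibrate and 0.13 and 0.35 with linalool. Its linalool arrays lay below all others, and the lipid-loaded mean, 0.74 (SE 0.16, adjusted p = 0.0138), was called under 7 of 9 settings. ABCF3, a member of the same subfamily, read 0.82, 1.08 and 0.50, then 0.56, 0.22 and 0.0011, then 0.18 and 0.23. Its linalool arrays lay below the lipid-loaded ones, whose mean, 0.80 (SE 0.18, adjusted p = 0.0138), was called under 6 settings.

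ABCE1 splits ribosomes into their subunits after termination. It read −0.97, 0.40 and 0.54 in lipid-loaded cells, 0.13, −0.14 and 0.16 with fenofibrate and 0.41 and 0.70 with linalool. Lipid-loaded replicate 1 had the opposite sign to its 2 replicates, and the mean was −0.0085 (SE 0.25, adjusted p = 0.980). ABCF2 read −0.34, 0.30 and 0.27, then −0.12, 0.39 and 1.06, then −0.021 and −0.33, and was not called at 0.078 (SE 0.23, adjusted p = 0.792). Of 15 translation partners of these proteins, 10 were called positive and 0 negative, against 24.1% and 10.7% of all genes, with a median of 0.65, among them the eIF2 subunits EIF2S1 at 0.65 (SE 0.19) and EIF2S3 at 0.88 (SE 0.16).

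ABCC8 and ABCC9 do not pump but regulate potassium channels, the former in pancreatic beta cells and the latter in muscle. ABCC9 read −1.41, −1.04 and −0.42 in lipid-loaded cells, −0.66, 0.26 and −0.014 with fenofibrate and −0.27 and −0.18 with linalool. In this average of 2 probes the lipid-loaded arrays were all negative and lay below the linalool arrays. For a probe taken singly the groups overlapped, with linalool replicate 2 at −0.84 and lipid-loaded replicate 3 at −0.72. The lipid-loaded mean, −0.96 (SE 0.22, adjusted p = 0.0145), was called under 6 of 9 settings. ABCC8 crossed 0 in each group, at −0.52, 0.0039 and 0.42, then −1.20, −0.41 and 0.51, then −0.073 and 0.027.

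The other 11 members of subfamily A, several of them known from tissues other than liver, had 0 positive and 3 negative calls. Of all genes, 24.1% were called positive and 10.7% negative. Among the 11 lipid-loaded means, 1 was above 0, beside 9384 of the 18819 genes tested. ABCA13, a very large and little studied member, read −0.52, −1.72 and −0.86 in lipid-loaded cells, −0.52, −1.17 and 0.54 with fenofibrate and −0.013 and 0.18 with linalool. The lipid-loaded arrays lay below the linalool arrays, and their mean, −1.03 (SE 0.30, adjusted p = 0.0240), was the lowest of the family and was called under 4 of 9 settings. ABCA4, the retinoid transporter of photoreceptors, read −0.34, −0.67 and −0.56, then −0.31, −0.52 and 0.082, then −0.33 and −0.38. Its groups overlapped, and the lipid-loaded mean was called at −0.53 (SE 0.17, adjusted p = 0.0333), under 4 settings.

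ABCA6 lies on chromosome 17 in a run of related genes, in the order ABCA8, ABCA9, ABCA6, ABCA10 and ABCA5. It read −0.97, −0.64 and −0.69 in lipid-loaded cells, 0.20, 0.11 and 1.04 with fenofibrate and −0.18 and −0.24 with linalool. The 3 groups did not overlap: fenofibrate arrays were positive, linalool arrays slightly negative and lipid-loaded arrays lowest. The lipid-loaded mean, −0.76 (SE 0.19, adjusted p = 0.0175), was called under 5 of 9 settings. Its neighbours were not called, with lipid-loaded means of −0.55 for ABCA8, 0.073 for ABCA9, −0.31 for ABCA10 and −0.37 for ABCA5.

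ABCA3, the surfactant lipid pump of lung, read −0.67, −0.25 and −0.13 in lipid-loaded cells, −0.099, −0.38 and −0.52 with fenofibrate and 0.23 and 0.46 with linalool. Only the linalool arrays were positive in this average of 2 probes, which disagreed in lipid-loaded cells, at 0.39 and −1.09. Its lipid-loaded mean was not called, at −0.35 (SE 0.17, adjusted p = 0.120). The remaining means of subfamily A were −0.40 (SE 0.21, adjusted p = 0.152) for ABCA12, a lipid carrier of the skin barrier, −0.22 (SE 0.24, adjusted p = 0.486) for ABCA7 and −0.024 (SE 0.26, adjusted p = 0.947) for ABCA2.

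ABCB5, known from melanoma and corneal stem cells, read −0.62, −0.71 and −0.40 in lipid-loaded cells, −0.59, −0.39 and −0.23 with fenofibrate and −0.11 and −0.44 with linalool. In the average of its 4 probes, it was the one member negative on all 8 arrays. Its lipid-loaded mean was called at −0.58 (SE 0.16, adjusted p = 0.0220). The 4 probes had lipid-loaded means of −0.12, −0.49, −0.44 and −1.26, but each of them was positive on some array. The call was made under 3 of 9 settings. ABCB9, a lysosomal peptide transporter, read −0.57, −0.21 and −0.018, then 0.40, 0.65 and −0.88, then −1.26 and −0.48. ABCC12, of unclear function, read −0.73, 0.037 and −0.61, then −0.23, 0.30 and 0.35, then −0.096 and 0.50. Neither these nor the pseudogene ABCC13, at −0.56 (SE 0.22, adjusted p = 0.0653), were called.

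**Figure D3:**
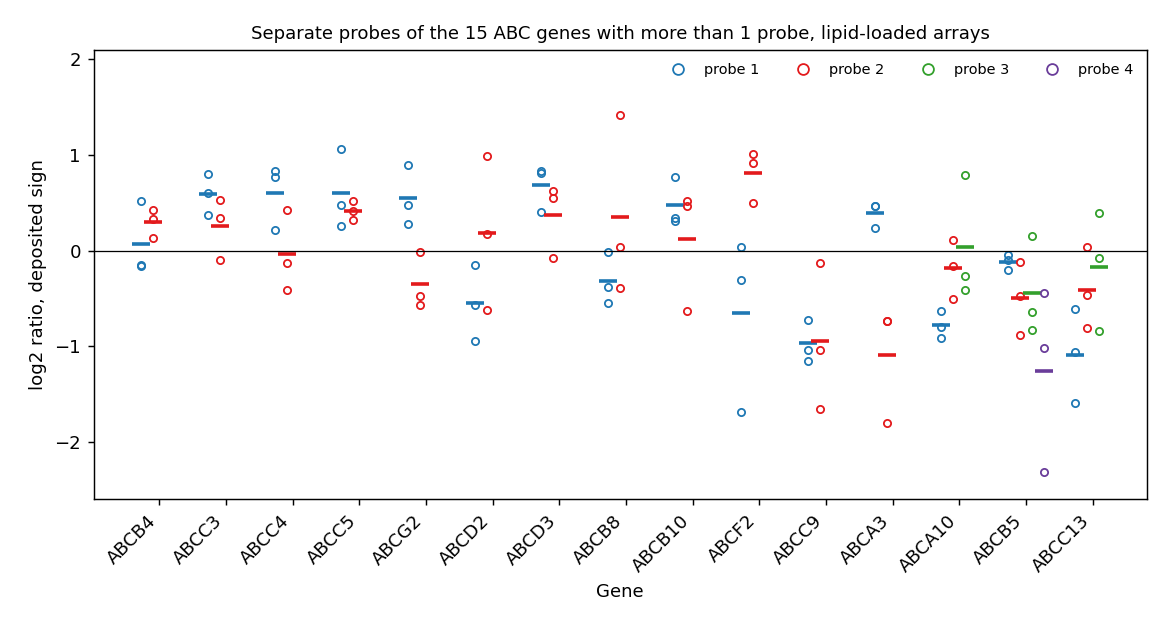
Log2 ratio with the deposited sign (vertical axis) of each probe of the 15 ABC genes with more than 1 probe, on the 3 lipid-loaded arrays. The 2 probes of ABCC9 have means of −0.97 and −0.94, whereas those of ABCF2 have means of −0.65 and 0.81.

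A single probe stood for 28 members and several for 15. Probe means differed in sign in 7 of the 15: ABCA3, ABCA10, ABCB8, ABCC4, ABCD2, ABCF2 and ABCG2. Those of ABCA3 were 0.39 and −1.09, those of ABCC4 0.61 and −0.038 and those of ABCD2 −0.55 and 0.18. In 0 of the 15 were probes of opposite sign each past an unadjusted p of 0.05. Of the called genes with several probes, ABCC5 had 0.60 and 0.42 and ABCD3 0.68 and 0.37. Probe sequences were not used here, so the transcripts each probe reads are not known.

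The list of ABC proteins under other symbols, outside the rule, held 3 genes. TAP1 of the antigen peptide transporter was called at 0.72 (SE 0.16, adjusted p = 0.0137), its partner TAP2 was not at −0.28 (SE 0.18, adjusted p = 0.225), and the chloride channel CFTR was called at −0.80 (SE 0.17, adjusted p = 0.0135). Of 14 receptors and factors that control ABC genes, 3 were called positive and 1 negative, against 24.1% and 10.7% of all genes, with a median of 0.29. The negative call was NR1I3, the xenobiotic receptor CAR, at −0.88 (SE 0.28, adjusted p = 0.0320).

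Called cell type markers split by sign in this comparison. All 7 hepatocyte markers measured, APOA1 among them, were called positive, against 24.1% of all genes, with lipid-loaded means from 0.60 to 0.99. Their median by array was 0.87, 0.52 and 0.65 in lipid-loaded cells, 0.57, 0.38 and 0.83 with fenofibrate and 0.43 and −0.063 with linalool. Of 9 markers of stromal, endothelial and blood cells, 4 were called negative and 0 positive, against 10.7% and 24.1% of all genes. The rest were not called, and 2 of the 9 lipid-loaded means were above 0. Array medians were −0.57, −0.53 and −0.51, then −0.58, 0.021 and −0.17, then −0.17 and 0.22. CD14 stood far from these medians with linalool, at 1.22 and 1.17. A ratio holds no level, so which markers or ABC genes are expressed in these cells at all cannot be read from it. All samples were of the HepG2 line, so the markers are not read as numbers of cells of each type. The part of these markers in the signs of the ABC genes was not tested.

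With fenofibrate, limma called 0 ABC genes against untreated cells and 0% of all genes. At an unadjusted p under 0.05 there were 11 members, 25.6% of the family, against 18.1% of all genes. ABCA1, ABCA6, ABCB1, ABCB6, ABCC1, ABCC2, ABCC3, ABCC5, ABCD3 and ABCF1 had positive means, and ABCB5 a negative one. ABCF1 had the highest mean, 0.62 (SE 0.16, adjusted p = 0.138), and ABCB5 the lowest, −0.40 (SE 0.16, adjusted p = 0.221). On every fenofibrate array 14 members were positive (32.6%, against 21.5% of all genes), while ABCA3 and ABCB5 were negative (4.65%, against 15.3%). The family median by array was −0.086, 0.11 and 0.29 for replicates 1, 2 and 3, against 0.10, 0.068 and −0.011 for all genes.

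With linalool, limma again called 0 members and 0% of all genes. At an unadjusted p under 0.05 there were 8 members (18.6%, against 12.4% of all genes). The conjugate and drug exporters ABCB1, ABCC1, ABCC2 and ABCC3 and the porphyrin transporter ABCB6 were positive, and the sterol exporters ABCG1 and ABCG4 and the peptide transporter ABCB9 negative. ABCB9 had the lowest mean, −0.87 (SE 0.33, adjusted p = 0.359). On both linalool arrays 20 members were positive (46.5%, against 38.6%) and 15 negative (34.9%, against 27.8%).

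Differences between treated groups were tested directly. The difference of fenofibrate minus lipid-loaded was called for 0 members and 0% of all genes, and 3 members had an unadjusted p under 0.05 (6.98%, against 10.3%). ABCA6 differed by 1.22 (SE 0.28, 95% interval 0.61 to 1.82, limma adjusted p = 0.472), and by 0.92 without fenofibrate replicate 3. ABCC9 differed by 0.82 (interval 0.14 to 1.50) and ABCB11 by 1.15 (interval 0.080 to 2.22), the latter by 0.52 without fenofibrate replicate 1. The 2 groups' arrays did not overlap for ABCA6 and, by a narrow margin, ABCC2, 4.65% of the family, against 18.8% of all genes. The difference of ABCC2 was −0.26 (interval −0.75 to 0.23). For ABCA1 the difference was 0.044 (interval −0.49 to 0.58), and for ABCD3 it was 0.0048 (interval −0.48 to 0.49).

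The difference of linalool minus lipid-loaded was called for 0 members and 0% of all genes, and ABCA3 and ABCA13 had an unadjusted p under 0.05 (4.65%, against 11.6%). ABCA13 differed by 1.12 (interval 0.095 to 2.14, adjusted p = 0.401) and ABCA3 by 0.70 (interval 0.11 to 1.29, adjusted p = 0.383). The direction for ABCA3 turned with the probe: the linalool mean was 0.30 against 0.39 in lipid-loaded cells for one probe and 0.39 against −1.09 for the other. Arrays did not overlap for 14 members (32.6%, against 37.1%). Linalool had the greater ratio for 10: ABCA3, ABCA6, ABCA7, ABCA13, ABCC1, ABCC2, ABCC3, ABCC9, the pseudogene ABCC13 and ABCG8. It had the smaller for 4, which were ABCB1, ABCD3, ABCF1 and ABCF3. Probes of ABCC3 taken singly overlapped, as did a probe each of ABCA3, ABCC9 and ABCD3 and some probes of ABCC13. For ABCC2 the difference was 0.37 (interval −0.18 to 0.92), for ABCF3 −0.60 (interval −1.20 to 0.010) and for ABCD3 −0.42 (interval −0.96 to 0.12).

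Fenofibrate and linalool were given at different doses. Linalool minus fenofibrate was called for 0 members and 0% of all genes, and ABCA3 and ABCC2 had an unadjusted p under 0.05 (4.65%, against 5.02%). ABCC2 differed by 0.63 (interval 0.080 to 1.18, adjusted p = 0.967) and ABCA3 by 0.68 (interval 0.089 to 1.27, adjusted p = 0.967). Arrays did not overlap for 8 members (18.6%, against 20.0%). Ratios of ABCA3, ABCC2 and ABCE1 were greater with linalool, and those of ABCA6, ABCC11, ABCD3, ABCF1 and ABCG4 smaller. An interval that includes 0 does not show that the groups were alike, and that of ABCD3 ran from −0.97 to 0.11.

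**Figure D4:**
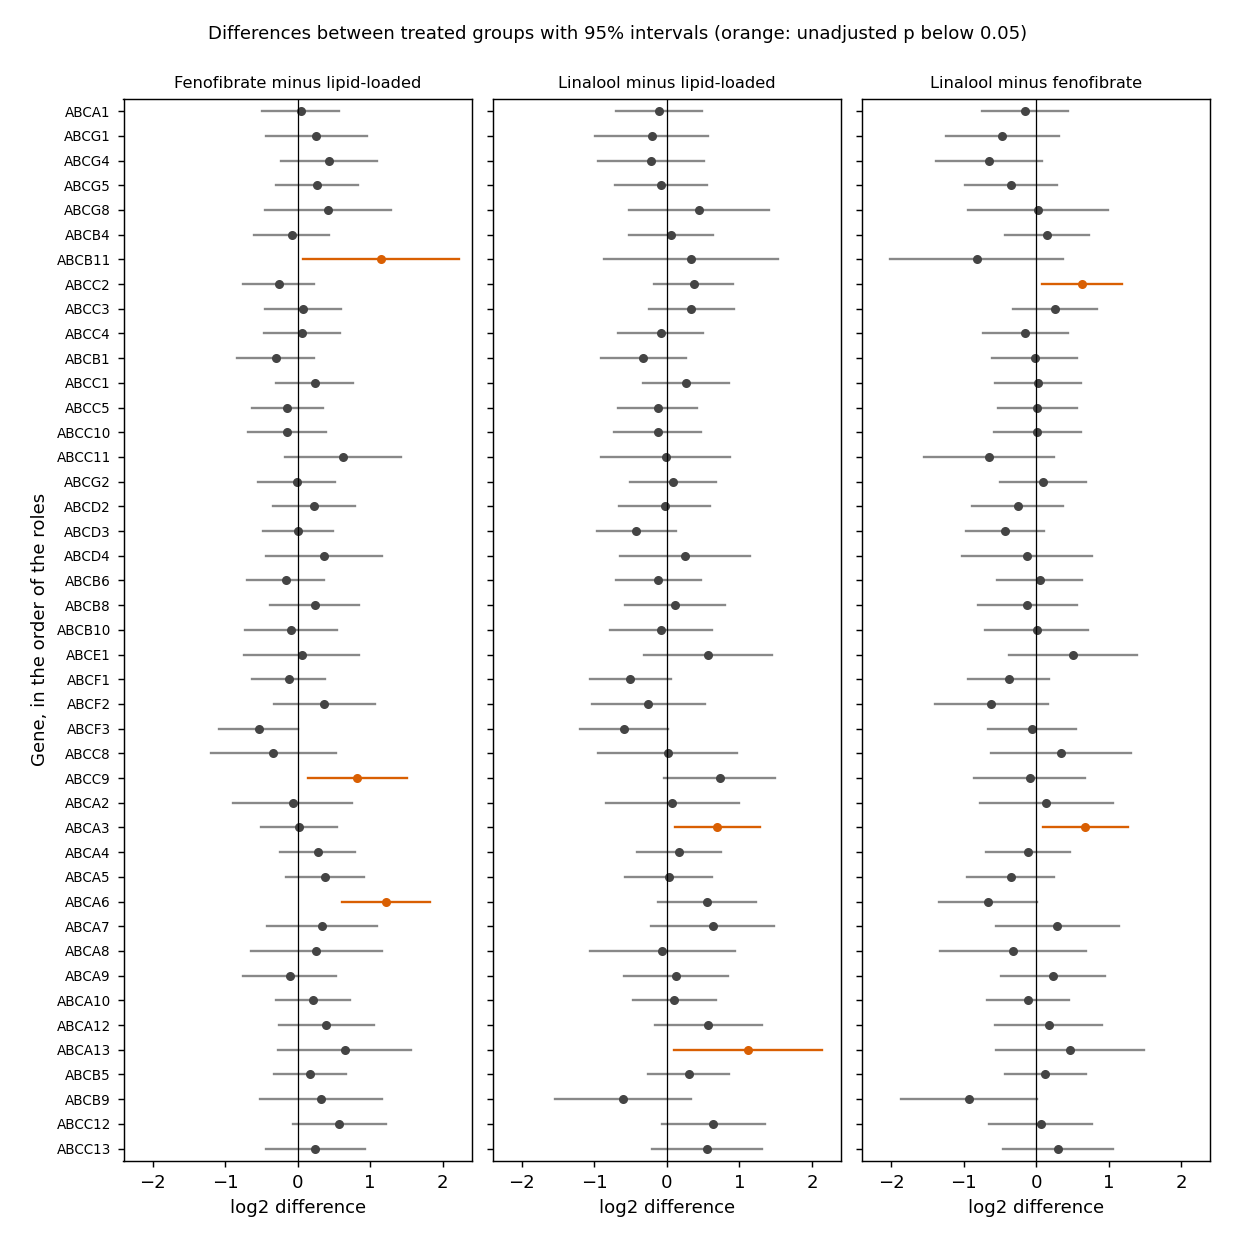
Log2 difference (horizontal axis) of each ABC gene between treated groups, with the 95% interval of the limma fit as a bar. An unadjusted p under 0.05 is marked in orange for 3, 2 and 2 genes in the panels, and no gene passed after adjustment.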

How the data were processed

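Processed values of 29187 probes on 8 arrays with 2 channels were deposited by the authors, and 4 are missing. How the arrays were scanned, background-corrected and normalized is not given in the sources used. What the authors deposited was read as log2 ratios, since on every array 100% of values matched the log2 of some ratio of 3 decimals after a constant shift (tolerance 0.0001, ratios from 0.2 to 2), against 21.8% to 27.6% with the sign turned. Columns were centred on a mean near 0, with medians from −0.012 to 0.0865. The numerator channel stays unknown. The files used hold ratios with no intensities, and the number of arrays limits the precision, with a median SE per gene of 0.193 for 3 arrays and 0.236 for 2.

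Probe symbols came from the platform annotation (25053 probes with 1 symbol, 4134 with none, 0 with several). Of these, 24981 were matched by identifier to current gene names. Probes of a gene were averaged, which gave 18821 genes, 18819 of them with at least 2 values per group. One fit in limma 3.58.1 (R 4.3.3, with the data.table package, version 1.17.8; lmFit and eBayes, two-sided) to all 8 arrays held a coefficient per group, with 5 residual degrees of freedom. It was tested on simulated data for lipid-loaded against untreated cells: of 200 genes changed by 1 on the log2 scale, 87.5% were called, with 14 false calls among the rest of 18819 genes. In the data 34.8% of genes were called in this comparison, and all called ABC means but that of ABCA13 were smaller than 1. The simulated shares therefore do not give the recovery or error of the calls made here. Motifs were counted and figures drawn in Python 3.11.15 with matplotlib 3.10.9.

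The members and all gene lists were chosen with earlier results of these data known, so they are described by counts and medians beside those of all genes. Values on every array are given for the exporters of sterols, bile constituents and drugs, for ABCD2 and ABCD3, and, in other roles, for called members and some of the others. Genes outside the family are named where called or where they are a partner or regulator of a member. Alternatives were quantile normalization, equal spread, median centring, 1 probe per gene, array weights, a fit to the compared groups only, a replicate block and leaving out each array.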

Additional observations from a re-analysis of the deposited data

Results flagged for a closer look

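A pair of members had arrays of opposite sign in 2 treated groups, every array of one group against every array of the other. Each difference was tested in the fit across all genes and none passed. ABCA6 was positive on all fenofibrate arrays and negative on all lipid-loaded and linalool arrays. Its difference was 1.22 (SE 0.28, limma adjusted p = 0.472) for fenofibrate minus lipid-loaded and −0.66 (SE 0.31, limma adjusted p = 0.967) for linalool minus fenofibrate. As the mean of its 2 probes, ABCA3 was positive on both linalool arrays and negative on the others. Its difference was 0.70 (SE 0.27, limma adjusted p = 0.383) for linalool minus lipid-loaded and 0.68 (SE 0.27, limma adjusted p = 0.967) for linalool minus fenofibrate. Neither probe showed this whole pattern. One was positive on all lipid-loaded arrays and negative on all fenofibrate arrays, with group means of 0.39, −0.71 and, with linalool, 0.30. The other was negative on all lipid-loaded arrays and positive on 2 of 3 fenofibrate arrays, with means of −1.09, 0.044 and 0.39. Among all genes, 1.59% had such opposite signs between fenofibrate and lipid-loaded arrays, 7.52% between linalool and lipid-loaded arrays and 4.16% between linalool and fenofibrate arrays. No group held enough arrays for the test of an outlying value within a group, which was therefore not run.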

How the results depend on the processing

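In lipid-loaded against untreated cells the 13 calls became 6 with quantile normalization (15.3% of all genes) and 0 when all arrays were given 1 spread (0%). Leaving out a lipid-loaded array gave 0 to 5 calls (0% to 16.4%). Median centring gave 13, 1 probe per gene 15, array weights 14 and a fit to the compared groups only 16. The 13 called genes kept their sign in all 117 of their alternative values, and no called value reversed. For linalool against untreated cells the count of 0 became 1 (ABCC2) with equal spread (0.659% of all genes) and 1 with array weights (0.526%). The other 4 comparisons had 0 calls under every alternative run. The cause of these changes was not tested. A replicate block, possible only for differences between treated groups, left 0 calls in each of the 3, and same-numbered lipid-loaded and fenofibrate arrays deviated together at r = 0.140, −0.021 and 0.083, so the numbers were not taken as pairs. Both alternatives that need spot brightness were not run, because the files used hold none, and a limit from dim spots could not be set.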
